A study of Rattus norvegicus with 6 samples.

Results

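The potassium channel genes described here are the 84 genes whose symbol starts with Kcn and that had a row of their own in at least 1 of the 6 deposited expression tables, out of 30076 named symbols. They were chosen by symbol, with earlier results of these data known. Kcnj13, Kcne2, Kcnj10 and Kcnk2 were left out by the rule, and 4 others that occurred only in rows joined with a neighbouring gene are not members. Of the 84 members, 49 had a mean of at least 1 FPKM (sequenced fragments per unit of transcript length and library size) over the 6 libraries and were tested. Another 29 lay below that filter, and 6 were joined to a neighbouring gene in some of the tables.

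Manual osteopathic treatment of the head was given to 3 rats, called manipulated here, and 3 other rats were left untreated. All 6 were male F344 rats aged 18 months with no other agent or allele named, and both groups were anaesthetised with 1.5 to 3% isoflurane. The manipulated rats were treated for 7 days, and each rat gave 1 RNA library from a 1 mm coronal slab labelled prefrontal cortex. The manipulated rats are replicates 4, 5 and 6 and the untreated rats replicates 1, 2 and 3.

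Potassium channels let potassium leave a cell along its gradient, which brings the membrane back towards rest. Voltage-gated subunits carry the repolarisation of action potentials, and they assemble as tetramers that auxiliary subunits hold in place or modify. Inward rectifiers and the channels with a pair of pore domains set the resting potential, and calcium- and sodium-activated channels follow the ions that enter during firing. In the cerebral cortex the mix of subunits differs between pyramidal cells, fast-spiking interneurons and glia.

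Across the whole data set FPKM tended to be lower in manipulated rats, with a median log2 fold change of -0.36 over 10670 tested genes and 87% of them below 0. A fold change of a single gene is therefore best read against -0.36. With median-ratio scaling, which sets the typical gene equal between libraries, the median was -0.0037. P-values measure the spread between these 6 rats, 1 library each. The libraries held 9258 to 10153 symbols of at least 1 FPKM in manipulated rats and 10257 to 10921 in untreated rats, and manipulated replicate 6 was the lowest. Markers of cortical glutamatergic neurons were present in all 6 libraries, with Slc17a7 at 50.8 to 74.4 FPKM in manipulated rats and 71.5 to 110 FPKM in untreated rats, while Emx1 was listed at 0 in untreated replicate 2. Markers of other regions were present too, and they differed between the groups. All 9 tested thalamic markers were lower in manipulated rats and 8 of them fell by the limma test, with a summed level of 14.8 to 26.5 FPKM over 10 markers in manipulated rats and 107 to 121 FPKM in untreated rats. Striatal medium spiny neuron markers were all higher in manipulated rats (11 of 11 tested), and none passed. Their sum over 12 markers was 200.2, 212 and 82.1 FPKM in manipulated replicates 4, 5 and 6, and 50.2, 48.3 and 74.6 FPKM in untreated replicates 1, 2 and 3, with Rarb at 0 in every untreated library. The labels name 1 tissue, and where each slab was cut was not tested. For any gene here, a group difference in the part of the brain sampled and an effect of treatment cannot be told apart. In bulk tissue, fewer cells of a type and less RNA per cell cannot be told apart either.

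No potassium channel gene changed between manipulated and untreated rats when p was adjusted over all 10670 genes. The limma test passed 0 of the 49 tested members, where it passed 0.356% of all genes (0.272% lower and 0.0843% higher), and the smallest adjusted p of a member was 0.215. At an unadjusted p under 0.05 there were 5 lower members, against 13.6% of all genes, and 1 higher member, against 1.46%. The 5 were Kcnj9, Kcnj16, Kcnc2, Kcnip4 and Kcnc4, and the higher one was Kcnh1. Of the 49 members 38 had a fold change below 0 and 11 above. The members had a median log2 fold change of -0.27, with quartiles of -0.40 and -0.05, while all genes had -0.36, with quartiles of -0.53 and -0.17. Groups did not overlap for 10 members that were lower in manipulated rats and for 0 that were higher, where the shares of all genes were 23.7% and 1.08%. These shares lie near the background, so the count of lower members says nothing particular about potassium channels.

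With median-ratio scaling the split turned to 21 members below 0 and 28 above, and the median was 0.049. At an unadjusted p under 0.05 there were then 3 lower members, against 4.81% of all genes, and 9 higher members, against 6.46%, and again none passed over all genes. Scaled groups did not overlap for 3 lower members, against 9.85% of all genes, and for 12 higher members, against 10%. The 3 were Kcnj9, Kcnj16 and Kcnc2, so the other lower members that separated the groups as deposited did not when scaled. Kcnj9, Kcnj16 and Kcnc2 were lower at that threshold on both scales, and Kcnh1 was higher on both. In 17 of the 49 members the sign of the fold change differed between the scales. Manipulated replicate 6 had the lowest FPKM of the 6 libraries in 32 of the 49 members. Without it the median log2 fold change was -0.077 in members and -0.22 in all genes. Weights per library gave manipulated replicate 4 a weight of 6.11 and manipulated replicate 6 a weight of 0.234. They passed 5 of the 49 members (Kcnj9, Kcnj16, Kcnc2, Kcnh2 and Kcnh1), where 948 of all 10670 genes passed.

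**Figure D1:**
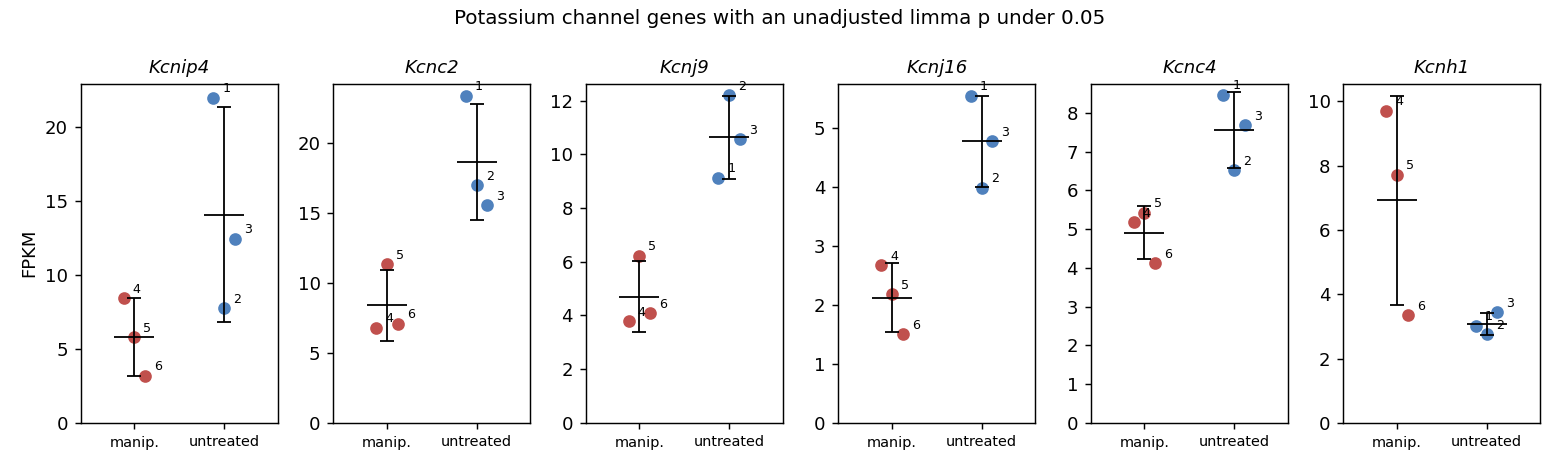
FPKM of the 6 potassium channel genes with an unadjusted limma p under 0.05, with 1 point per rat (numbers are replicates), a horizontal bar at the mean and error bars of 1 SD, n = 3 in each group. The 3 manipulated rats lie below the 3 untreated rats for Kcnc2, Kcnj9, Kcnj16 and Kcnc4, the groups overlap for Kcnip4, and for Kcnh1 manipulated replicate 6 lies among the untreated rats.

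**Figure D2:**
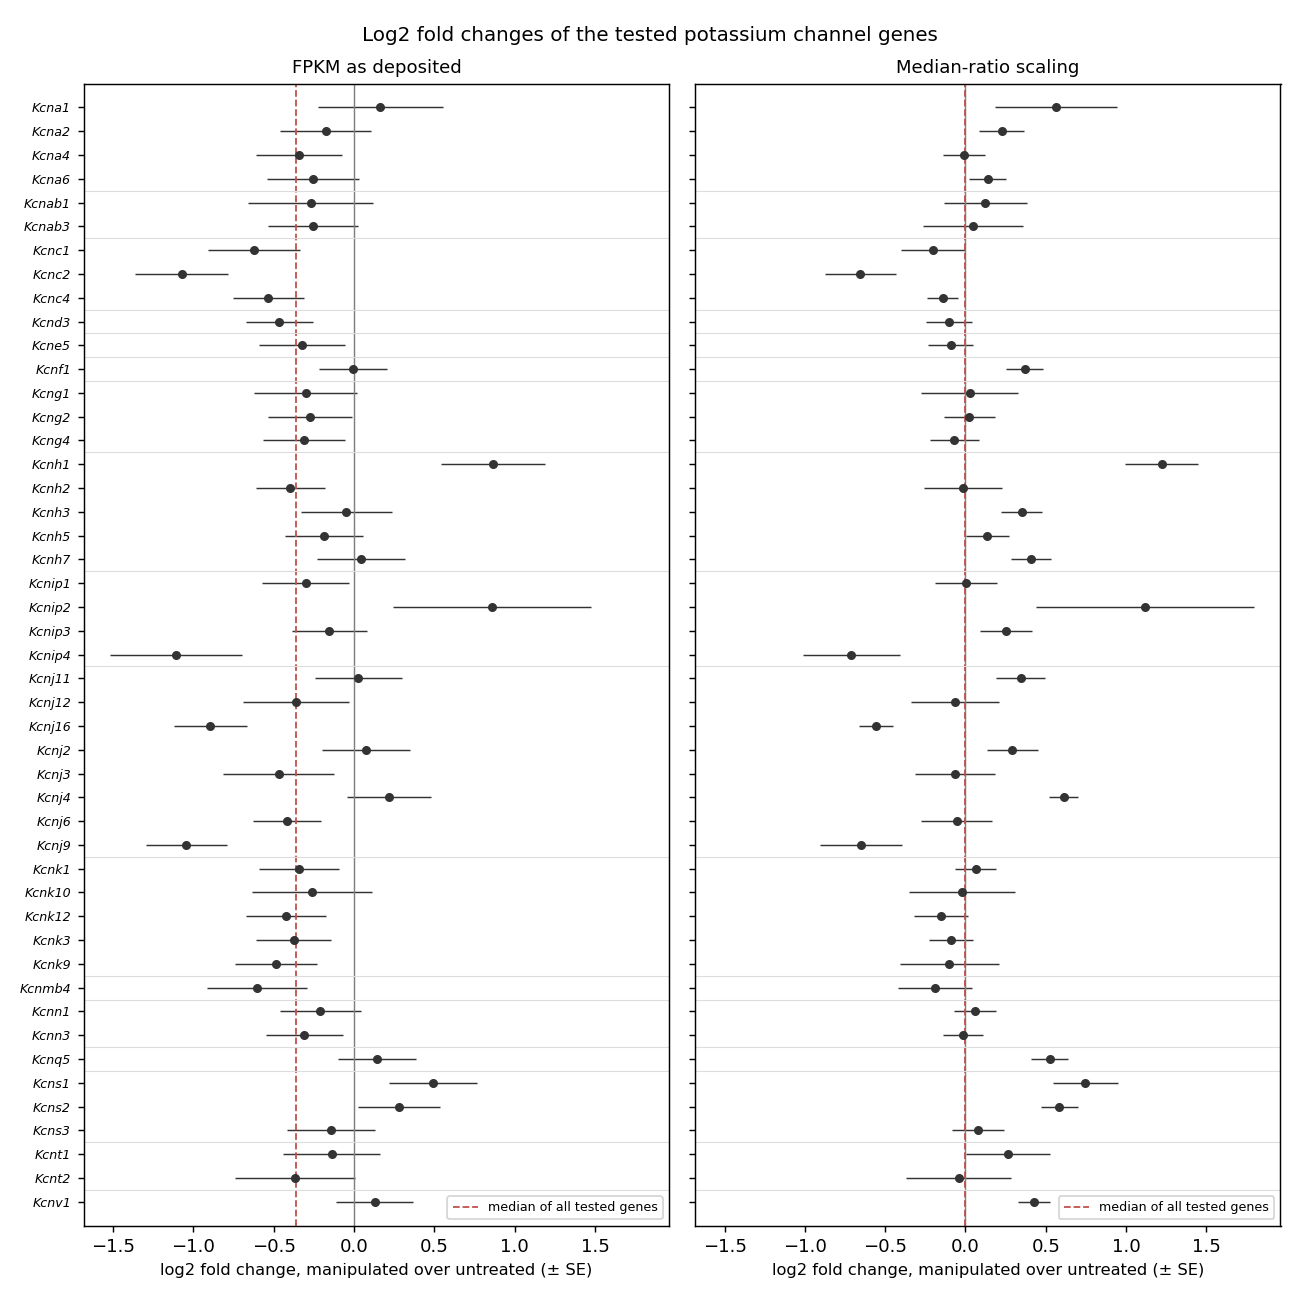
Log2 fold change, manipulated over untreated, with its standard error, for 47 of the 49 tested potassium channel genes in order of subfamily. The left panel shows FPKM as deposited, where 36 of these lie below 0, and the right panel shows median-ratio scaling, where 21 do; dashed lines mark the median of all tested genes.

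The promoters of the 4 members with an unadjusted p under 0.05 in the same direction on both scales are shown to set the 3 lower genes beside the higher one, Kcnh1. Each window holds 250 bases before and 50 bases after the gene start, from RefSeq on the build GRCr8, and capitals mark a GC box (GGGCGG on either strand).

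Kcnc2, chr7:49587364-49587663, plus strand: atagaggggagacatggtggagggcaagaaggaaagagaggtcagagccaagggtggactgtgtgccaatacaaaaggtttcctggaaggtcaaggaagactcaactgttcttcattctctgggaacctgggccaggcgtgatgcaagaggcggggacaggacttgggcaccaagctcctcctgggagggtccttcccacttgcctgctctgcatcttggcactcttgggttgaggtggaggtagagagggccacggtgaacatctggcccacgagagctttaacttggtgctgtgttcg

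Kcnj9, chr13:87320244-87320543, minus strand: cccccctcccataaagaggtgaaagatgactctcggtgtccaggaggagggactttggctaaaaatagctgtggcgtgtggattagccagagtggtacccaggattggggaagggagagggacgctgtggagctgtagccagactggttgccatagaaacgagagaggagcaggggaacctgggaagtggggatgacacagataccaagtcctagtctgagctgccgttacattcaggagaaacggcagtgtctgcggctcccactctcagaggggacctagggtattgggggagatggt

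Kcnj16, chr10:96517074-96517373, plus strand: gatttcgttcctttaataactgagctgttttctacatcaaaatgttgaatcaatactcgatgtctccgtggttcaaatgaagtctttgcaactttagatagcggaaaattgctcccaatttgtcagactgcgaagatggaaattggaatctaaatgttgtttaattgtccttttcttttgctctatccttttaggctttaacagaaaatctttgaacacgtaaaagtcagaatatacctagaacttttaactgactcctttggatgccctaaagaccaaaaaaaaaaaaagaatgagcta

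Kcnh1, chr13:106252966-106253265, plus strand: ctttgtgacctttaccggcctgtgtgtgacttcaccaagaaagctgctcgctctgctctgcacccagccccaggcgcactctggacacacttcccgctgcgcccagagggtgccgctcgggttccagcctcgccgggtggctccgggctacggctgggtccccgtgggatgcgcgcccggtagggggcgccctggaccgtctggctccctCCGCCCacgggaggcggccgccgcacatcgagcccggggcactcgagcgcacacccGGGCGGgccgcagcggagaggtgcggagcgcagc

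The Kcnh1 window holds 2 GC boxes and is 72.7% G and C. The Kcnc2 and Kcnj9 windows hold none and are 56% G and C, and the Kcnj16 window holds none and is 34% G and C. RefSeq windows were matched for 56 of the 84 members. A GC box was found in 28 of these 56, against 34.9% of 27457 promoters, and median G and C content was 60.8% in members and 52.3% in all promoters. A TATA box (TATAAA) was found in 1 member, Kcnj1, against 14.3% of all promoters, and an E-box (CACGTG) in 3 members, against 6.65%. A cAMP response element (TGACGTCA) was found in 0 of 56 members, against 1.91% of all promoters, and the left part of an RE1 element (TTCAGCACC) in 1 member, Kcnh6, against 0.379%. Both strands were searched, and no motif of the 5 contains another. A match describes the letters in the window and is not a measured binding site.

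Kcnc genes, which encode the fast voltage-gated channels that let interneurons fire at high rates, had the highest summed FPKM in untreated rats among subfamilies, counting members with their own row in every library. All 4 members were tested, all 4 had fold changes below 0, and their median log2 fold change was -0.58. The 4 genes together had 34.9, 44.7 and 26.7 FPKM in manipulated replicates 4, 5 and 6, against 65.6, 47.9 and 51.4 FPKM in untreated replicates 1, 2 and 3. Every manipulated library lay below every untreated library in this sum of deposited FPKM. The same held for the Kcnd, Kcne, Kcnj and Kcnk sums, in data where 87% of all tested genes had fold changes below 0. Scaled by median ratio the Kcnc sums overlapped, at 36.9, 44.9 and 41.3 in manipulated rats, against 49.5, 50.3 and 41.1 in untreated rats. Scaled by median ratio, 3 of the 4 were below 0, with a median of -0.17.

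Kcnc2 (chromosome 7, 54978024 to 55159432, Rnor_6.0) had the lowest unadjusted p of the subfamily. Its level was 6.81, 11.3 and 7.09 FPKM in manipulated rats, against 23.4, 17.0 and 15.6 FPKM in untreated rats. The groups did not overlap, and neither did the intervals deposited with the values, which reached up to 12.0 FPKM in manipulated rats and down to 14.8 FPKM in untreated rats. Its log2 fold change was -1.07 (SE 0.29), with an unadjusted p of 0.0047 and an adjusted p of 0.271 by limma. With median-ratio scaling the log2 fold change was -0.65, with an unadjusted p of 0.0246. The gene made up 19.5, 25.4 and 26.5% of the summed Kcnc FPKM in manipulated rats, against 35.6, 35.5 and 30.3% in untreated rats. That share does not depend on how a library is scaled, and the groups did not overlap in it.

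Kcnc4, which encodes a fast-inactivating subunit, had 5.19, 5.42 and 4.13 FPKM in manipulated rats, against 8.47, 6.53 and 7.68 FPKM in untreated rats. The groups did not overlap, but its share of the Kcnc sum did, at 12.1 to 15.5% in manipulated rats and 12.9 to 15.0% in untreated rats. The log2 fold change was -0.53 (SE 0.22), with an unadjusted p of 0.0388 and an adjusted p of 0.326, and the unadjusted p was 0.139 without untreated replicate 1. Scaled by median ratio, the groups overlapped and the log2 fold change was -0.14, with an unadjusted p of 0.195. The value of untreated replicate 2 carried a deposited interval of 0 to 45.1 FPKM. Its row spanned 9.03 times as many bases in the longest as in the shortest library, so the transcripts summed in it were not the same throughout. Kcnc1, the subunit typical of fast-spiking cells, had 13, 7.79 and 7.52 FPKM in manipulated rats and 17.0, 12.2 and 15.1 FPKM in untreated rats. The groups overlapped in Kcnc1.

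Markers of fast-spiking interneurons (Pvalb, Syt2, Lhx6 and Erbb4) summed to 40.4 to 68.1 FPKM in manipulated rats and 48.2 to 89.1 FPKM in untreated rats, with 1 of 4 lower and none at 0. The thalamic markers as a sum, like Kcnc2, were lower in every manipulated rat than in every untreated rat. They summed to 26.5, 21.3 and 14.8 FPKM in manipulated replicates 4, 5 and 6, and 107, 110 and 121 FPKM in untreated replicates 1, 2 and 3. Their part in the level of Kcnc2 was not tested.

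Kcnj genes encode inward rectifiers, and 8 of 13 members were tested. Their median log2 fold change was -0.39, with 5 below 0 and 3 above. The 12 members with a row of their own in every library summed to 33.7, 37.6 and 22.6 FPKM in manipulated rats, against 50.3, 39.0 and 42.4 FPKM in untreated rats. The scaled median was -0.06.

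Among the subunits opened by G proteins, which slow neurons when inhibitory receptors are active, Kcnj9 had the largest difference. Kcnj9 (chromosome 13, 90697496 to 90710287), which forms heteromers with Kcnj3 and Kcnj6 products, had 3.79, 6.22 and 4.08 FPKM in manipulated rats, against 9.12, 12.2 and 10.6 FPKM in untreated rats. The groups and their deposited intervals stayed apart, with edges at 6.71 FPKM in manipulated rats and 8.57 FPKM in untreated rats. It had the smallest p of all members. Its log2 fold change was -1.05 (SE 0.25), with an unadjusted p of 0.00234 and an adjusted p of 0.215. With median-ratio scaling the log2 fold change was -0.65, with an unadjusted p of 0.0435 and an adjusted p of 0.428. Its row spanned 7252 to 12792 bases across libraries.

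Kcnj3, which encodes the obligate partner in most neuronal channels of this kind, had 8.72, 7.43 and 5.08 FPKM in manipulated rats, against 17.0, 7.45 and 7.72 FPKM in untreated rats. Its mean difference rests on untreated replicate 1, and the adjusted p was 0.399. Kcnj6 had 3.57, 2.45 and 3.14 FPKM in manipulated rats, against 4.03, 4.16 and 5.01 FPKM in untreated rats. The groups did not overlap, with an unadjusted p of 0.077 and an adjusted p of 0.332, but scaled groups overlapped, with a log2 fold change of -0.06. Kcnj5, the subunit best known from the heart, was low in both groups, at 0.182 to 0.247 FPKM in manipulated rats and 0.142 to 0.200 FPKM in untreated rats. Of the summed FPKM of these 4 genes, Kcnj9 made up 23.2, 38.0 and 32.7% in manipulated rats, against 30.1, 50.9 and 45% in untreated rats. The groups overlapped in that share, though not in the share of all Kcnj genes, which was 11.2 to 18.0% in manipulated rats and 18.1 to 31.3% in untreated rats.

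Kcnj16 (chromosome 10, 99360484 to 99391825), whose product joins the main inward rectifier of astrocytes, had 2.67, 2.18 and 1.50 FPKM in manipulated rats, against 5.54, 3.98 and 4.77 FPKM in untreated rats. The groups did not overlap, and the deposited intervals ended at 2.97 FPKM in manipulated rats and began at 3.63 FPKM in untreated rats. The log2 fold change was -0.90 (SE 0.23), with an unadjusted p of 0.00332 and an adjusted p of 0.247. With median-ratio scaling it was -0.56, with an unadjusted p of 0.00178 and an adjusted p of 0.152. Its next neighbour among the members, Kcnj2, starts 40423 bases further on and had 1.38, 1.40 and 0.673 FPKM in manipulated rats, against 1.25, 0.961 and 0.855 FPKM in untreated rats. The groups overlapped in Kcnj2, a strong inward rectifier, whose log2 fold change was 0.07. Scaled groups did not overlap, with a log2 fold change of 0.29 and an adjusted p of 0.519. Its share of the Kcnj sum was 2.98 to 4.09% in manipulated rats and 2.02 to 2.49% in untreated rats. Its row spanned 6.22 times as many bases in the longest as in the shortest library. Astrocyte markers summed to 197 to 383 FPKM over 6 markers in manipulated rats and 339 to 468 FPKM in untreated rats, with 4 of 6 lower, 2 higher and none at 0. Their part in the level of Kcnj16 was not tested.

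Kcnj4, another strong inward rectifier of forebrain neurons, had a fold change of the opposite sign to Kcnj9 and Kcnj16 on both scales. It had 7.94, 9.15 and 5.10 FPKM in manipulated rats, against 6.97, 5.05 and 6.30 FPKM in untreated rats, and the groups overlapped. Its log2 fold change as deposited was only 0.22 (SE 0.26), with an adjusted p of 0.577 by limma. Its share of the Kcnj sum was 22.5 to 24.3% in manipulated rats and 12.9 to 14.9% in untreated rats, with no overlap. With median-ratio scaling its log2 fold change was 0.61, with an unadjusted p of 0.000534 and an adjusted p of 0.112. Kcnj11, the pore of channels closed by ATP, had 1.55 to 3.90 FPKM in manipulated rats and 2.23 to 2.84 FPKM in untreated rats, and Kcnj12 had 1.02 to 4.10 and 2.44 to 3.32 FPKM in the same order. The groups overlapped in both on the deposited scale. Scaled groups did not overlap in Kcnj11, with a log2 fold change of 0.34 and an adjusted p of 0.453, and its share of the Kcnj sum was 6.83 to 10.4% in manipulated rats and 5.56 to 6.70% in untreated rats.

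Kcna genes encode low-threshold channels of axons, and 4 of 7 members were tested, with 3 below 0 and 1 above and a median of -0.22. Kcna1, the most abundant, had 10.5, 11.8 and 6.39 FPKM in manipulated rats, against 12.9, 9.75 and 4.15 FPKM in untreated rats. The groups overlapped fully, and the log2 fold change was 0.16 (SE 0.39), adjusted p 0.775. Kcna2, its usual partner in axons, had 9.09, 9.01 and 5.06 FPKM in manipulated rats and 10.6, 7.77 and 7.66 FPKM in untreated rats. Kcna4 and Kcna6 had 1.56 to 3.34 and 3.81 to 7.22 FPKM in manipulated rats, and 2.72 to 4.49 and 5.48 to 8.86 FPKM in untreated rats. Kcna5, Kcna1 and Kcna6 lie in this order on chromosome 4 between 159076089 and 159287193, and none of the 3 separated the groups.

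Of the beta subunits, which bind the inner face of Kcna channels, Kcnab1 had 10.3, 10.2 and 3.51 FPKM in manipulated rats, against 11.7, 6.62 and 9.36 FPKM in untreated rats. Manipulated replicate 6 was the lowest, and the adjusted p was 0.632. Kcnab3 had 1.77 to 2.64 FPKM in manipulated rats and 1.74 to 4.40 FPKM in untreated rats. Kcnab2, the main beta subunit of brain, was the most abundant of all members but shared its row with Rnf207 in manipulated replicate 4. In the other libraries it had 28.4 and 24.4 FPKM in manipulated rats, against 45.1, 40.0 and 38.6 FPKM in untreated rats. These 5 values did not overlap, and a fit over them, with replicate 4 left out, gave a log2 fold change of -0.62 with an adjusted p of 0.337.

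Kcnd3, a subunit of the A-type current of dendrites, had 3.30, 2.87 and 2.76 FPKM in manipulated rats, against 5.45, 3.94 and 4.17 FPKM in untreated rats. The groups stayed apart, and so did the deposited intervals, which ended at 3.50 FPKM in manipulated rats and began at 3.71 FPKM in untreated rats. Its log2 fold change was -0.47 (SE 0.21), with an unadjusted p of 0.0505 and an adjusted p of 0.326, and it was -0.10 with median-ratio scaling. Kcnd1 was lower in level, at 0.363 to 0.866 FPKM in manipulated rats and 0.538 to 1.23 FPKM in untreated rats.

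Kcnip genes encode calcium-binding proteins that attach to Kcnd channels, and all 4 were tested, with 3 below 0 and 1 above. Kcnip4 (chromosome 14, 66598166 to 66749242) had 8.44, 5.81 and 3.19 FPKM in manipulated rats, against 22, 7.75 and 12.5 FPKM in untreated rats. Untreated replicate 2 lay below manipulated replicate 4, so the groups overlapped. The log2 fold change was -1.11 (SE 0.41), with an unadjusted p of 0.0234 and an adjusted p of 0.323. Scaled, it was -0.71 with an unadjusted p of 0.0579, and without manipulated replicate 6 the unadjusted p was 0.103. Kcnip2 was listed at 0 in untreated replicate 1, with an interval of 0 to 0, and had 6.29, 5.83 and 3.09 FPKM in manipulated rats and 4.47 and 5.25 FPKM in the other untreated rats. Its fold change of 0.86 rests on that 0, since it was 0.01 without untreated replicate 1. A value of 0 with such an interval can be a failed estimate, which was not tested, and the gene is 1 of the 11 members above 0. Kcnip3, which is also a transcriptional repressor, had 7.31 to 10.1 FPKM in manipulated rats and 9.10 to 10.1 FPKM in untreated rats, and Kcnip1 had 1.18 to 3.19 and 2.82 to 3.24 FPKM in the same order. Hippocampal markers summed to 10.7 to 16.3 FPKM over 6 markers in manipulated rats and 18.9 to 47.6 FPKM in untreated rats. Untreated replicate 1 was the highest library in the marker sum and in Kcnip4, and in 21 of the 49 tested members. Untreated replicates 2 and 3 had 24.2 and 18.9 FPKM in the markers, and 7.75 and 12.5 FPKM in Kcnip4. Of the hippocampal markers, 3 of 3 tested were lower. Lct was at 0 in manipulated replicates 5 and 6, but it was near 0 in every library, at most 0.00578 FPKM in untreated replicate 3. Their part in the level of Kcnip4 was not tested.

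Kcnh genes encode voltage-gated channels, and 5 of 8 members were tested, with a median log2 fold change of -0.05. Kcnh1 (chromosome 13, 110920736 to 111232443), the ether-a-go-go channel, had the highest fold change of the tested members. It had 9.71, 7.71 and 3.35 FPKM in manipulated rats, against 3.02, 2.76 and 3.43 FPKM in untreated rats. Replicates 4 and 5 were high, while manipulated replicate 6 lay within the range of the untreated rats. The high values were also the least certain, with deposited intervals of 2.62 to 16.8 FPKM in replicate 4 and 0.826 to 14.6 FPKM in replicate 5, and these reach the untreated levels. The log2 fold change was 0.87 (SE 0.33), with an unadjusted p of 0.0257 and an adjusted p of 0.325, and without manipulated replicate 4 it was 0.60 with an unadjusted p of 0.0996. With median-ratio scaling the groups did not overlap and the log2 fold change was 1.22, with an unadjusted p of 0.00169 and an adjusted p of 0.151. Kcnh1 made up 31.6, 29.6 and 19.8% of the summed Kcnh FPKM in manipulated rats, against 11.9, 15.2 and 13.4% in untreated rats, with no overlap. The summed striatal markers, given above, were also high in manipulated replicates 4 and 5 and nearer to the untreated rats in replicate 6. Their sum was highest in replicate 5. Their part in the level of Kcnh1 was not tested.

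Kcnh3, the most abundant Kcnh gene by mean over the 6 libraries, had 8.76, 7.11 and 4.74 FPKM in manipulated rats, against 8.51, 5.09 and 7.67 FPKM in untreated rats, with an adjusted p of 0.91. Scaled groups did not overlap, with a log2 fold change of 0.35, an unadjusted p of 0.0341 and an adjusted p of 0.403. Kcnh2, the channel of the human heart's rapid delayed rectifier, had 3.48, 3.05 and 4.31 FPKM in manipulated rats, against 5.17, 4.32 and 5.71 FPKM in untreated rats. The groups of Kcnh2 narrowly did not overlap, and its log2 fold change of -0.40 had an adjusted p of 0.333. It was -0.02 with median-ratio scaling. Kcnh5 and Kcnh7 had 1.59 to 3.34 and 2.58 to 5.09 FPKM in manipulated rats, and 2.72 to 3.34 and 2.79 to 4.54 FPKM in untreated rats. The groups overlapped in both, but scaled groups did not in Kcnh7, with a log2 fold change of 0.41, an unadjusted p of 0.0172 and an adjusted p of 0.321.

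Kcnq genes carry the M-current, which holds neurons back from repetitive firing. Of 5 members 2 were tested, 1 with a fold change below 0 and 1 above. Kcnq5 had 5.95, 7.35 and 4.05 FPKM in manipulated rats, against 5.08, 4.67 and 5.30 FPKM in untreated rats. The groups overlapped, with a log2 fold change of 0.14 and an adjusted p of 0.685. Scaled groups did not overlap, with a log2 fold change of 0.52 and an adjusted p of 0.202. The Kcnq5 row spanned 198775 to 455941 bases across libraries. Kcnq3 shared its row in manipulated replicate 4 and had 6.46 and 4.93 FPKM in the other manipulated rats, against 14.7, 7.62 and 8.40 FPKM in untreated rats. Without replicate 4 its log2 fold change was -0.70, with an adjusted p of 0.333.

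Kcnf, Kcng, Kcns and Kcnv genes encode subunits that do not form channels alone and modify other voltage-gated channels. Kcnf1 had 5.32, 4.5 and 3.88 FPKM in manipulated rats, against 4.84, 3.92 and 4.98 FPKM in untreated rats, and its log2 fold change of -0.01 was among the smallest. Kcng1 had 2.61, 1.91 and 1.98 FPKM in manipulated rats, against 5.50, 2.36 and 1.69 FPKM in untreated rats. Only untreated replicate 1 was high in Kcng1, and the adjusted p was 0.532. Kcns2 had 2.91, 3.22 and 1.61 FPKM in manipulated rats, against 2.30, 1.54 and 1.87 FPKM in untreated rats. Kcnv1 had 2.34, 2.33 and 1.51 FPKM in manipulated rats, against 2.02, 1.31 and 2.07 FPKM in untreated rats. In both, replicates 4 and 5 were the highest of the 6 libraries and replicate 6 was among the untreated rats. Kcns1 had 1.47 to 2.40 FPKM in manipulated rats and 0.611 to 1.69 FPKM in untreated rats. Kcnf1, Kcns1, Kcns2 and Kcnv1 had log2 fold changes of 0.37, 0.75, 0.58 and 0.43 with median-ratio scaling, where each had an unadjusted p under 0.05 and adjusted p ran from 0.163 to 0.333.

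Among channels opened by calcium or sodium, no tested member separated the groups. Kcnmb4, the neuronal beta subunit of the large-conductance calcium-activated channel, had 7.95, 9.21 and 6.43 FPKM in manipulated rats, against 10.9, 8.88 and 19.3 FPKM in untreated rats. Untreated replicate 3 was high, the log2 fold change was -0.60 (SE 0.31), and the adjusted p was 0.333. The pore gene of that channel, Kcnma1, had 9.75 and 7.04 FPKM in manipulated replicates 4 and 6, against 10.2 and 9.83 FPKM in untreated replicates 1 and 2, and shared its row with another gene in the remaining libraries. Kcnn3, a small-conductance channel, had 1.90, 1.48 and 1.21 FPKM in manipulated rats, against 2.40, 1.57 and 2.48 FPKM in untreated rats, with an adjusted p of 0.413. Kcnt1, a sodium-activated channel, had 9.0, 5.25 and 5.94 FPKM in manipulated rats, against 7.23, 5.08 and 10.6 FPKM in untreated rats, with an adjusted p of 0.752. Kcnn1 and Kcnt2 overlapped between the groups as well.

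Kcnk genes encode leak channels, and 5 of 12 members were tested, all with fold changes below 0 and a median of -0.38, close to the -0.36 of all genes. Kcnk1 had 7.67, 8.21 and 5.97 FPKM in manipulated rats, against 9.09, 7.95 and 11.6 FPKM in untreated rats, with an adjusted p of 0.395. Kcnk9 and Kcnk3, acid-sensitive leak channels, had 2.55 to 4.66 and 1.17 to 1.34 FPKM in manipulated rats, and 4.43 to 7.02 and 1.6 to 2.52 FPKM in untreated rats. Kcnk12 had 0.987 to 1.49 FPKM in manipulated rats and 1.61 to 2.79 FPKM in untreated rats. The groups did not overlap in Kcnk3 and Kcnk12, whose adjusted p were 0.357 and 0.344. Kcne5, the only Kcne gene tested, encodes a small inhibitory subunit and had 0.829, 0.923 and 0.644 FPKM in manipulated rats, against 1.55, 0.892 and 1.35 FPKM in untreated rats, with an adjusted p of 0.434.

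**Figure D3:**
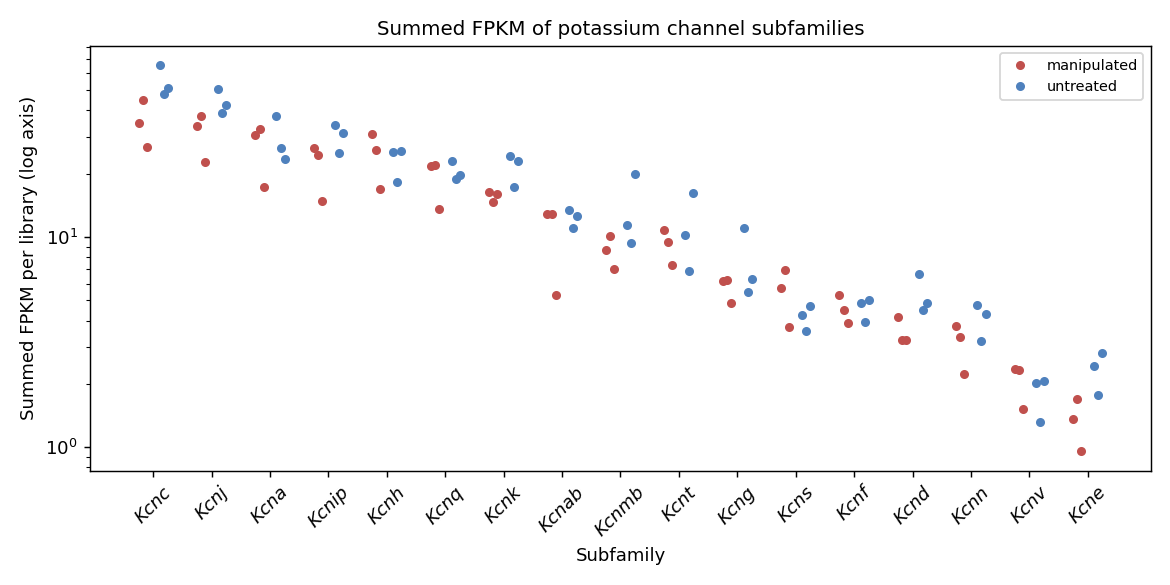
Summed FPKM of each Kcn subfamily in each library on a log axis, over members with a row of their own in all 6 libraries, in order of the mean. The Kcnc sum lies lower in all manipulated rats (26.7 to 44.7 FPKM) than in untreated rats (47.9 to 65.6 FPKM), a separation that median-ratio scaling does not keep. The Kcnd, Kcne, Kcnj and Kcnk sums also lie lower in all manipulated rats as deposited.

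**Figure D4:**
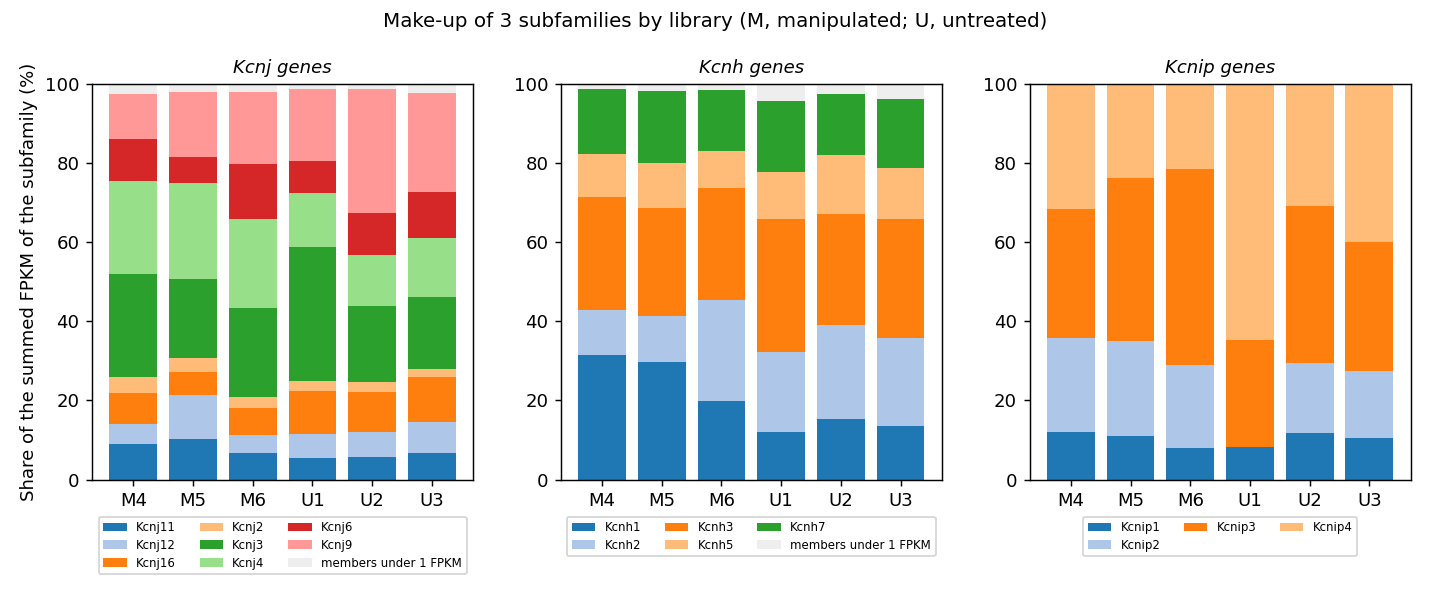
Share of each member in the summed FPKM of the Kcnj, Kcnh and Kcnip genes, with 1 bar per library (M, manipulated; U, untreated); members under 1 FPKM are in grey where their share is visible. Kcnip2 is missing from the bar of untreated replicate 1, where it was listed at 0, and this raises the other Kcnip shares there. The share of Kcnh1 is 19.8 to 31.6% in manipulated rats and 11.9 to 15.2% in untreated rats, and the share of Kcnj4 is 22.5 to 24.3% in manipulated rats and 12.9 to 14.9% in untreated rats.

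Of the 29 members below the filter, Kcne1, a subunit of heart and inner ear channels, was listed at 0 in all 6 libraries, and 12 members, Kcne1 among them, had a mean under 0.1 FPKM. Among the 28 others the groups did not overlap in 2 lower and 2 higher members, where the shares of all symbols under the filter were 15.8% and 1.65%. Kcne3 had 0.149, 0.231 and 0.147 FPKM in manipulated rats, against 0.407, 0.402 and 1.04 FPKM in untreated rats. Kcnh8 had 0.108, 0.0302 and 0.0694 FPKM in manipulated rats, against 0.206, 0.163 and 0.222 FPKM in untreated rats. Both were lower in every manipulated rat. Kcnmb2 had 0.624, 0.907 and 0.596 FPKM in manipulated rats, against 0.229, 0.378 and 0.513 FPKM in untreated rats. It was higher in every manipulated rat, but its deposited intervals began at 0 FPKM in both groups. Its row spanned 39871 to 307526 bases across libraries. Kcne3, Kcnh8 and Kcnmb2 were picked for their separation after the values were seen. Kcnk15 was listed at 0 in 5 libraries and at 1.45 FPKM in manipulated replicate 6, where its row alone spanned 9251 bases and elsewhere 6219.

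Partner genes of potassium channels that carry no Kcn symbol did not pass the test either. Of 24 listed by role, 17 were tested, 13 with fold changes below 0 and 4 above, and their median log2 fold change was -0.24. By limma 0 passed over all genes, where 0.356% of all genes did. Of the 17, 1 had an unadjusted p under 0.05, where 15.1% of all genes did. That gene, Abcc8, encodes the sulfonylurea receptor that joins the Kcnj11 product in channels closed by ATP. It had 2.42, 1.88 and 1.84 FPKM in manipulated rats, against 4.34, 4.81 and 3.05 FPKM in untreated rats. The groups did not overlap, and the log2 fold change was -0.72 (SE 0.22), adjusted p 0.31. Dlg4, a scaffold that clusters Kcna channels, had 57.5, 63.3 and 34.1 FPKM in manipulated rats, against 74.6, 51.3 and 62.4 FPKM in untreated rats. The groups overlapped in Dlg4. Scaled by median ratio, Abcc8 had a log2 fold change of -0.39 and an unadjusted p of 0.145. On that scale Akap5, an anchor for kinases, had a log2 fold change of 1.00 and an unadjusted p of 0.00105, and Amigo1, Dlg1 and Cntn2 were also higher, with unadjusted p of 0.00974, 0.0188 and 0.0281. These 4 were named after their values were seen, and 6.46% of all genes were higher at an unadjusted p under 0.05 on that scale. With median-ratio scaling 5 of the 17 were below 0 and 12 above.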

How the data were processed

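Each library has 1 deposited gene-level table of FPKM with the lower and upper bound of an interval. Per the submitters' processing notes the authors used STAR 2.7.3a, Cufflinks and the build Rnor_6.0. No Cufflinks version, read total, strand setting, RNA selection or annotation release is given in the sources used here, so depth is unknown. FPKM is scaled within a library, and without strand a gene and a transcript opposite to it cannot be told apart (Kcnmb1 lies within the Kcnip1 row).

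FPKM was summed per symbol and library. Among 30076 symbols, 3254 were joined to another gene somewhere, 142 lay at several places (rows over 100000 bases apart), 32 lacked a value in some library and 5 had failed estimates; a symbol can be in more than 1 of these classes. These and mitochondrial genes were left out, which left 26673. Symbols averaging 1 FPKM or more (10670) were tested on the scale log2(FPKM + 1) using limma (version 3.58.1, R version 4.3.3; trended variance, no covariate, two-sided, Benjamini-Hochberg over all of them, adjusted p threshold 0.05). Fold changes on this scale understate the change of low genes. Row starts count from 0, since the span equalled the RefSeq gene length for 1136 symbols under that reading and for 193 under the other, and are printed counting from 1, at their widest over libraries.

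Values in every library are given for members with an unadjusted p under 0.05 and for the highest of each subfamily letter; other members were named after their values were seen, as were the shares within a subfamily. Some items these rules name are not reported here. The members and lists were chosen with earlier results of these data known. Alternatives covered the pseudocount, the filter, scaling, variance prior, library weights, shared rows and leaving out each library, with row span and shares added after seeing the data. Simulated data were used to test the fit. Tables and figures used Python 3.11.15 with matplotlib 3.10.9, numpy 2.4.6 and pandas 2.3.3.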

Additional observations from a re-analysis of the deposited data

How the results depend on the processing

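Weights per library were the only 1 of the 13 alternatives under which a member passed the adjusted p. With them 5 of 49 members passed, 4 lower and 1 higher, where 948 of 10670 tested genes passed. Adjusted p by limma was 0.0314 for Kcnj9, 0.0382 for Kcnj16, 0.0403 for Kcnc2, 0.0495 for Kcnh2 and 0.0269 for Kcnh1. An unadjusted p under 0.05 was found for 14 of the 49 members, where 4292 of the 10670 genes had one. Over the alternatives adjusted p ran up to 0.441 for Kcnj9, 0.533 for Kcnj16, 0.591 for Kcnc2, 0.984 for Kcnh2 and 0.618 for Kcnh1. Members with an unadjusted p under 0.05 numbered 6 of 49 as reported, where 1607 of 10670 genes had one. With no filter on low values they numbered 11 of 77, against 2497 of 19656 genes. With median-ratio scaling they numbered 12 of 49 (3 lower and 9 higher), against 1202 of 10670 genes. In fits without 1 library they numbered 4 to 8, against 837 to 2731 of all genes. The median log2 fold change of members was -0.27 as reported and 0.049 with median-ratio scaling, and it ran from -0.41 to -0.077 without 1 library, the last without manipulated replicate 6. In the same fits without 1 library the median over all genes ran from -0.47 to -0.22. Genes called over all tested genes numbered 38 as reported, 20 with no filter, 84 with a robust variance prior and 39 to 71 without 1 library. The cause of these shifts was not tested. No paired analysis was possible because the groups share no replicate numbers. The deposited FPKM carry no read counts, so what depth limits could not be measured.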
